A study of Homo sapiens with 18 samples.

Results

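The genes described here are 34 genes of cholesterol and fatty acid synthesis, taken by their symbols from the 26485 genes of both deposited tables of PANC-1 cells. They were divided by function into a sterol arm of 19 genes, a fatty acid arm of 11 genes and 4 regulators. PANC-1 is an established human cell line of pancreatic ductal carcinoma. Its cells received control siRNA, PKR siRNA 1 or 2 by transfection, or were treated with the vehicle DMSO or with the PKR inhibitor C16 at 400 nM or 800 nM, and RNA was taken after 72 h. PKR is a kinase activated by double-stranded RNA and encoded by EIF2AK2. An siRNA lowers the mRNA that its guide strand matches and can lower other mRNAs that match in part. C16 is a small molecule that blocks the kinase and leaves its gene in place. Each of the 6 groups had 3 libraries, and the labels do not say whether these came from separate cultures, so the SDs and p-values describe the spread between libraries. Pairs of libraries within a group differed by 1.03 to 1.63 times the variance of read sampling alone (chi-square per degree of freedom). Much of this spread was thus read sampling, and variation between cultures may not be in it. The sample titles put the siRNA libraries in run 1 and the C16 libraries in run 2, without saying what a run is, and the authors normalized each set on its own. The run cannot be told apart from the kind of treatment, each table was therefore compared only within itself, and differences between the siRNA and C16 effects were not tested.

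Cells make cholesterol from acetyl-CoA through the mevalonate pathway, squalene and lanosterol, and make fatty acids from the same precursor through malonyl-CoA, after which desaturases and elongases shape the chains. Most genes of both pathways are targets of the sterol regulatory element-binding proteins. SREBF2 encodes SREBP-2, which favours the sterol genes, and SREBF1 encodes SREBP-1, which favours the fatty acid genes. Both proteins are made as membrane-bound precursors. SCAP escorts them from the endoplasmic reticulum for cleavage when sterols are low, and INSIG1, itself a target, holds SCAP back when sterols are high. The activity of SREBPs therefore depends on cleavage, which RNA levels do not measure.

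Reads on genes ranged from 1512940 to 1873906 per siRNA library and from 894145 to 1474308 per C16 library, so genes with few reads were less precise in the C16 table. EIF2AK2 had 95.5, 93.5 and 103 normalized counts with control siRNA, 10.00, 13.6 and 9.65 after PKR siRNA 1 and 7.96, 8.58 and 9.405 after PKR siRNA 2. It lay at 45.7, 49.5 and 54.1 with DMSO and at 51.4, 48.7 and 49.6 with 800 nM C16. The target was thus lower in all knockdown libraries, and its log2 difference between 800 nM C16 and DMSO was 0.01 (95% confidence interval −0.33 to 0.34, adjusted p = 0.974, limma). Epithelial markers were present, with 7 of 7 above 0 and a summed level of 3353 to 10463 normalized counts. Their summed level differed between groups, at 5552 to 5670 with control siRNA, 3353 to 3554 with PKR siRNA 1, 9829 to 10463 with PKR siRNA 2, 7290 to 7715 with DMSO, 6145 to 6632 with 400 nM C16 and 5275 to 5788 with 800 nM C16, and the part of this in the results below was not tested. KRT8, KRT18 and KRT19 made up most of the epithelial sum, and single markers differed from it. With PKR siRNA 2, 3 of the 7 rose and 2 fell by over 1.5-fold (adjusted p under 0.05, limma). The shares of all genes were 10.8% and 12.8%. EPCAM went from a mean of 103 with control siRNA to 10.7 and KRT7 from 18.2 to 4.64, while KRT8 went from 2527 to 4925. Over the siRNA libraries KRT7 reached the mean of 10 needed for a test only through its level with control siRNA. Its fall is therefore conditioned on that filter. KRT7 was also under a mean of 10 with DMSO and both C16 doses. Acinar, islet and endothelial markers summed to at most 1.07 in any library. Of 5 fibroblast and 5 leukocyte markers only COL1A1 and CD68 reached a mean of 10. COL1A2, DCN, PTPRC, CD3E and MS4A1 were at 0 in every library. The summed fibroblast markers lay between 82.1 and 112 normalized counts in the control siRNA libraries, between 23.6 and 31.1 for PKR siRNA 1 and between 118 and 120.4 for PKR siRNA 2, and, in the separately normalized C16 table, from 131 to 161 with DMSO, 104 to 162 at 400 nM and 60.1 to 93.8 at 800 nM. The summed leukocyte markers, nearly all CD68, lay between 149 and 173 in the control siRNA libraries, between 208 and 276 for PKR siRNA 1 and between 197 and 206 for PKR siRNA 2, and from 52.4 to 57.3 with DMSO, 141 to 171 at 400 nM and 107 to 123 at 800 nM. The part of either list in the results was not tested. In RNA from whole cultures, fewer cells that express a gene and less RNA per cell cannot be told apart.

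The sequences around the start sites of these genes were searched for the motif that SREBPs bind and for motifs of their partners. Windows of 300 bases, from 250 before to 50 after a start, were taken from RefSeq (GRCh38.p14) and were available for 30 of the 34 genes, in 42 windows. FASN, ACAT2, SQLE and FDFT1 had none. Both strands were searched for TCACNCCAC, a sterol regulatory element, for its shorter core TCACNCC, which the first motif contains, for CCAAT, the box of NF-Y, and for GGGCGG, the box of Sp1. NF-Y and Sp1 are known to act beside SREBPs. The full element was found in 1.13% of 35116 windows of all genes and in 1 of the 42 windows, that of SREBF2. The core was found in 15.5% of all windows and in 12 of the 42, which belonged to 5 of 16 sterol genes (HMGCS1, IDI1, MSMO1, MVK and NSDHL), 4 of 10 fatty acid genes (ACSS2, FADS1, LPIN1 and ME1) and SREBF2. CCAAT was found in 34.6% of all windows and in 26 of the 42. It was present for 14 of 16 sterol genes, 6 of 10 fatty acid genes and 2 of 4 regulators. GGGCGG was found in 45% of all windows and in 36 of the 42. The windows shown are those of SREBF2, the only one with the full element, of MSMO1 and NSDHL, whose RNA fell with PKR siRNA 2 and rose with 800 nM C16, of DHCR7, the most abundant sterol gene, and of TM7SF2, FADS1 and SREBF1, which fell with C16. They lie at chr22:41832855-41833154 on the plus strand (SREBF2), chr4:165327419-165327718 on the plus strand (MSMO1), chrX:152830813-152831112 on the plus strand (NSDHL), chr11:71448344-71448643 on the minus strand (DHCR7), chr11:65111622-65111921 on the plus strand (TM7SF2), chr11:61816954-61817253 on the minus strand (FADS1) and chr17:17836937-17837236 on the minus strand (SREBF1). Each is written 5′ to 3′ along its gene, with capitals for the core, the NF-Y box and the Sp1 box on either strand. A match describes letters in a window and is not evidence of binding.
SREBF2: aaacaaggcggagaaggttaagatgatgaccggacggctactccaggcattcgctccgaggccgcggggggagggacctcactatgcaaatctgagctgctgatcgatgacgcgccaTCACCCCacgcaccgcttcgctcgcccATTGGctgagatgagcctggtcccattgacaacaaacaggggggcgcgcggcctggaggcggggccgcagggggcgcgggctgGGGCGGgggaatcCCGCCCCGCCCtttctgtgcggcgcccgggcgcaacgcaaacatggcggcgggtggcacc
MSMO1: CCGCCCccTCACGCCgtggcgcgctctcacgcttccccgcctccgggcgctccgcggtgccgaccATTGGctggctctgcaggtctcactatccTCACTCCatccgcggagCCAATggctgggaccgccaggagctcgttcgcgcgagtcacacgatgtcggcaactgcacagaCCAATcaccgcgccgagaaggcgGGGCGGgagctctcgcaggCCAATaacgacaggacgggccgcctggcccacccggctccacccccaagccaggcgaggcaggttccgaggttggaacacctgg
NSDHL: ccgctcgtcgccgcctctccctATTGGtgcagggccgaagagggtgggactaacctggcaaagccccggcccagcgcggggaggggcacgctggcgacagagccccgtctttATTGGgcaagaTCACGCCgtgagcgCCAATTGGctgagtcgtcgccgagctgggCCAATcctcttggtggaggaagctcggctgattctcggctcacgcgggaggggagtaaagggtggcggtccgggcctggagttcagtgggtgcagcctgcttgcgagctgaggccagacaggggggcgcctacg
DHCR7: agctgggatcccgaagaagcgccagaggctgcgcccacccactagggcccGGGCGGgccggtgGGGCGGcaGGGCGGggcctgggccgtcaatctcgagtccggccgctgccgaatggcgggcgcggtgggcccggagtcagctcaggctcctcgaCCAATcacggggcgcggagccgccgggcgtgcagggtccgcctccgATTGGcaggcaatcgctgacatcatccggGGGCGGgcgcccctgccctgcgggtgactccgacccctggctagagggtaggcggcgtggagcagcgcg
TM7SF2: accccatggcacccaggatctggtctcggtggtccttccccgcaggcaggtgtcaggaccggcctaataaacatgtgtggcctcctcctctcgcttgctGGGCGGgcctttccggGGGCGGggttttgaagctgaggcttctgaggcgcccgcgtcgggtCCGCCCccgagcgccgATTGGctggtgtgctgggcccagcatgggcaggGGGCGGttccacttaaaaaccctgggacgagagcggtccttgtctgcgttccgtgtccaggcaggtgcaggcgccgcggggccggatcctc
FADS1: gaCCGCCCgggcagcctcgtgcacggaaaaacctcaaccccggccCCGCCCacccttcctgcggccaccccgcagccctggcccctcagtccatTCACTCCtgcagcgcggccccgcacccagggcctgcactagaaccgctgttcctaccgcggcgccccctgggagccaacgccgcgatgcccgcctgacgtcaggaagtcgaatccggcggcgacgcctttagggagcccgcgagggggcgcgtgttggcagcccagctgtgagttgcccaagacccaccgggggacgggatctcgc
SREBF1: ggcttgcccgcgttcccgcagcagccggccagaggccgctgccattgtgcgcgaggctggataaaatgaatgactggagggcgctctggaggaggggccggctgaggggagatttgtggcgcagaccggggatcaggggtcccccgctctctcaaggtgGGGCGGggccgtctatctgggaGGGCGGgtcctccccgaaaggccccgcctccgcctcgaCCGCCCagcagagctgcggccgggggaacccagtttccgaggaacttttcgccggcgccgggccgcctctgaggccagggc
MSMO1 held the core at 242 and 156 bases before its start with 4 CCAAT boxes, and NSDHL held it at 127 bases before its start with 5. SREBF2 held the full element 133 bases before its start. The windows shown of SREBF1, TM7SF2 and DHCR7 had GGGCGG but not the core. Another window of DHCR7, at chr11:71448994-71449293 on the minus strand, is not shown and held none of the motifs. SC5D, FDPS, HMGCS1, DHCR7 and SQLE also fell with PKR siRNA 2 and rose with 800 nM C16. CYP51A1 and ACAT2 also rose with 800 nM C16. Their means were lower with PKR siRNA 2 than with control siRNA (217 against 256, and 99.4 against 122). Of the windows of these genes that are not shown, those of HMGCS1 held the core. Those of SC5D, FDPS and CYP51A1 did not, and SQLE and ACAT2 had no window.

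Levels were compared between genes per kilobase of exon. With control siRNA the most abundant member was SCD, the desaturase that makes monounsaturated fatty acids, at 333 ± 6.72 normalized counts per kilobase (SD, n = 3), followed by FASN, the fatty acid synthase, at 212 ± 4.39, and by DHCR7, the reductase of the last steps of cholesterol synthesis, at 177 ± 7.07. These levels were further apart than their spread. ELOVL5 (125 ± 5.88), FDPS (121 ± 13.9) and ACLY (114 ± 10.7) came next and overlapped in their spread. At the other end lay ACSS2 (5.77 ± 1.17) and STARD4 (5.73 ± 1.47), which did not differ beyond their spread, and ELOVL6 (1.39 ± 0.123). With DMSO the order began with SCD (685 ± 2.09 per kilobase), FADS2 (286 ± 9.50), FASN (175 ± 21.7) and DHCR7 (147 ± 2.71) and again ended with ELOVL6 (0.623 ± 0.212). ELOVL6, an elongase of saturated fatty acids, stayed under the mean of 10 normalized counts needed for a test, with group means from 2.11 to 5.38. The other 33 genes were tested. LSS and ACACA are annotated on an alternate sequence of the assembly as well as on their chromosome. Their lengths were taken from the chromosome alone, and reads that match both copies may have been lost, so their levels are uncertain.

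**Figure D1:**
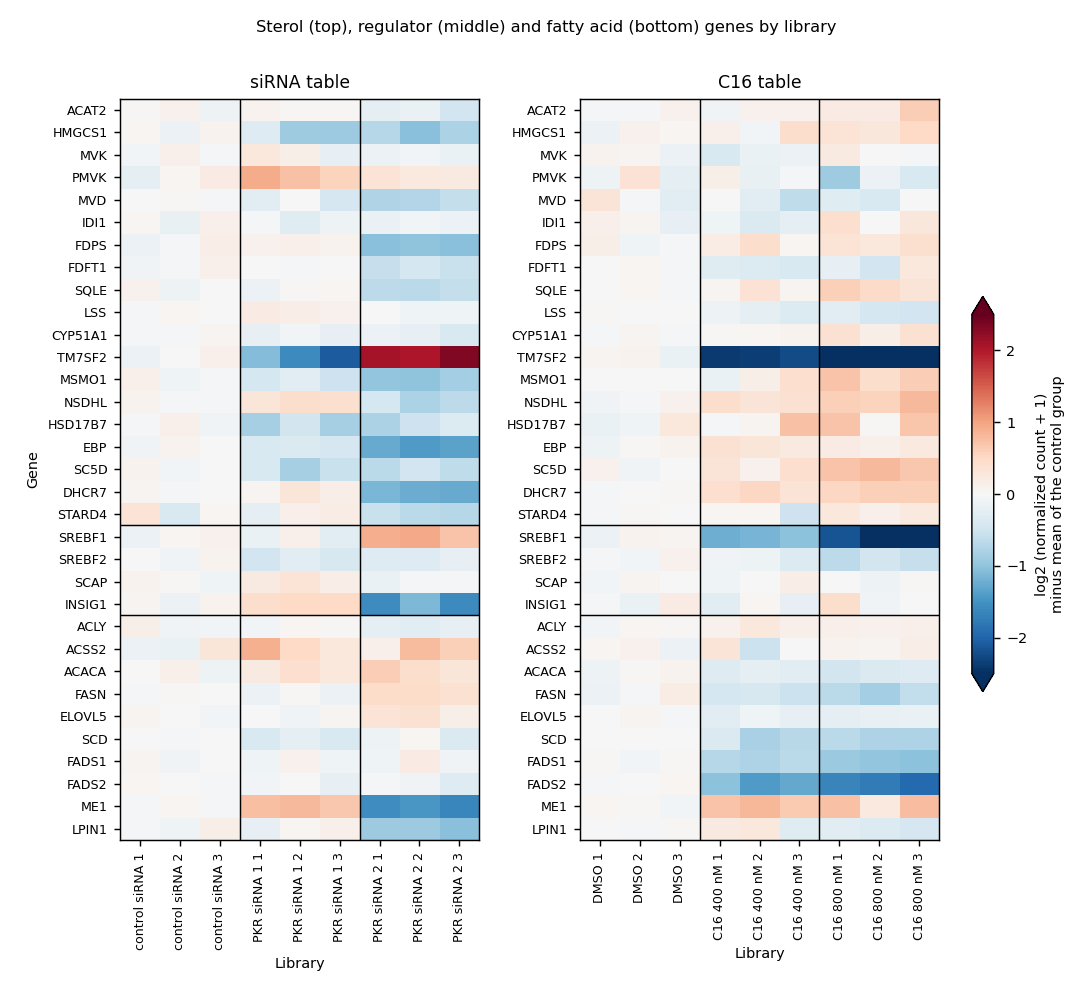
Heat map of the 33 tested genes (rows) in the 18 libraries (columns), as log2 (normalized count + 1) minus the mean of control siRNA in the left panel and of DMSO in the right panel. The sterol genes are mostly below the control in the 3 libraries of PKR siRNA 2 and mostly above DMSO with 800 nM C16, TM7SF2 has the opposite sign in both, and SREBF1, FADS1 and FADS2 are lowest with 800 nM C16.

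Changes were tested with limma on log2 (normalized count + 1), with p-values adjusted by Benjamini-Hochberg over all genes tested, 10593 for the siRNAs and 9963 for C16. A gene is said to have risen or fallen where the adjusted p was under 0.05, and is counted as called where the change was also over 1.5-fold. With 3 libraries against 3 an exact permutation test of a single gene cannot go below p = 0.1. Groups without overlap were common among all genes. With PKR siRNA 2, 2744 of 10593 lay above and 3005 below all control libraries, against 6 and 20 of 33 members. With PKR siRNA 1 the numbers were 2592 and 2881, against 8 and 9. With 800 nM C16, 2601 of 9963 lay above and 2562 below all DMSO libraries, against 13 and 11 of 33. With 400 nM they were 2037 and 1906, against 7 and 11. A lack of overlap alone thus does not set a gene apart. The comparisons of both siRNAs share their control libraries, and those of both C16 doses share the DMSO libraries.

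With PKR siRNA 2 much of the sterol arm fell. Of its 19 genes, 13 fell and 1 rose, with a median log2 change of −0.59 against −0.01 over all genes tested. Of all genes tested, 25.2% were lower and 22.1% higher by the same criterion. Over 1.5-fold, 10 sterol genes were called lower and 1 higher, against 12.8% and 10.8% of all genes. In the fatty acid arm 4 of 10 tested genes fell and 3 rose, 2 were called lower and 0 higher, and the median was −0.07. This median had no stable sign: it was 0.0039 without replicate 3 of PKR siRNA 2, −0.14 without its replicate 2, and −0.15 with no filter or a minimum mean of 30.

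At the head of the pathway, HMGCS1, which makes HMG-CoA for the mevalonate pathway, had 133, 117 and 137 normalized counts with control siRNA and 78.6, 62.2 and 74.3 with PKR siRNA 2. It fell by 0.85 on the log2 scale (SE 0.13, adjusted p = 1.33e-07). MVD, which turns mevalonate diphosphate into isopentenyl diphosphate, went from 104, 105 and 99.5 to 60.7, 61.1 and 67.7 and fell by 0.70 (SE 0.13, adjusted p = 6.97e-06). The treated libraries of both genes lay below every control library. The mevalonate kinases were not among the genes that fell: MVK had a log2 change of −0.13 and PMVK of 0.27, and IDI1, the isomerase, of −0.13.

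FDPS, which makes farnesyl diphosphate, had 180, 196 and 225 normalized counts with control siRNA and 96.5, 98.6 and 95.9 with PKR siRNA 2. The groups were far apart, with a fall of 1.03 (SE 0.10, adjusted p = 4.46e-15). The antisense gene RUSC1-AS1 covers 12.6% of the exon bases of FDPS and had a mean of at most 2.75 normalized counts in any group. SQLE, the epoxidase that turns squalene towards lanosterol, had 263, 226 and 247 against 154, 153 and 162 and fell by 0.64 (SE 0.09, adjusted p = 2.64e-09). FDFT1, the squalene synthase, fell by 0.52, which is less than 1.5-fold.

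Within the sterol arm, the steps from lanosterol to cholesterol held the 2 largest falls, those of EBP and DHCR7. EBP, the sterol isomerase, had 104, 117 and 112 normalized counts with control siRNA and 45.8, 40.7 and 43.3 with PKR siRNA 2. It fell by 1.34 (SE 0.14, adjusted p = 6.85e-14). DHCR7 went from 492, 454 and 469 to 212, 198 and 197 and fell by 1.22 (SE 0.07, adjusted p = 1.85e-25). For both genes the gap between the groups was wider than either group. MSMO1, the C4-methyl sterol oxidase, had 133, 113 and 119 against 60.7, 60.0 and 66.8 and fell by 0.95 (SE 0.13, adjusted p = 1.03e-09). NSDHL, its partner dehydrogenase, had 179, 162 and 161 against 122, 96.5 and 105 and fell by 0.63 (SE 0.10, adjusted p = 1.28e-07). SC5D, the sterol desaturase, had 214, 191 and 199 against 126, 144 and 130 and fell by 0.59 (SE 0.10, adjusted p = 1.23e-06), close to the 1.5-fold limit. STARD4, a sterol transport protein, had 40.05, 23.6 and 32.2 against 20.9, 19.3 and 18.8 and fell by 0.64 (SE 0.23, adjusted p = 0.0146). The treated libraries of all 4 lay below the control libraries, for STARD4 by the smallest distance. Without control siRNA replicate 1 the changes of NSDHL (−0.58), SC5D (−0.55) and STARD4 (−0.47) were not called.

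TM7SF2 moved the other way. It encodes a sterol reductase of the step after CYP51A1, an activity that the lamin B receptor also has, and lies at chr11:65111854-65116235 (hg38). It had 28.8, 32.2 and 35.1 normalized counts with control siRNA and 138, 132 and 162 with PKR siRNA 2, a rise of 2.13 (SE 0.20, adjusted p = 4.41e-15). VPS51 covers 0.437% of its exon bases on the same strand.

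Of the fatty acid genes, FASN, ACACA and ELOVL5 rose with PKR siRNA 2 by less than 1.5-fold. ELOVL6, which was not tested, had 5.13, 4.30 and 4.74 normalized counts with control siRNA and 3.98, 0 and 2.82 with PKR siRNA 2. FASN had 1748, 1819 and 1802 normalized counts with control siRNA and 2470, 2454 and 2315 with PKR siRNA 2, and rose by 0.43 (SE 0.05, adjusted p = 6.31e-13). ACACA, the carboxylase that makes malonyl-CoA, rose by 0.45 and ELOVL5, an elongase of polyunsaturated fatty acids, by 0.29. The groups did not overlap in any of these genes. ACLY, which makes cytosolic acetyl-CoA from citrate, fell by 0.23 and SCD by 0.15. The libraries of SCD overlapped between these groups (exact permutation test, p = 0.4). The desaturases of polyunsaturated fatty acids had log2 changes of 0.01 (95% confidence interval −0.15 to 0.17, FADS1) and −0.15 (−0.31 to 0.00, FADS2).

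The called falls of this arm were in ME1 and LPIN1. ME1, the malic enzyme that supplies NADPH, had 70.9, 75.2 and 71.1 normalized counts with control siRNA and 23.9, 25.7 and 22.6 with PKR siRNA 2, a fall of 1.55 (SE 0.15, adjusted p = 9.51e-15). LPIN1, a phosphatidate phosphatase of triglyceride synthesis, had 143, 135 and 163 against 77.6, 77.2 and 70.5, a fall of 0.96 (SE 0.11, adjusted p = 2.55e-11). In both, every treated library lay below every control library.

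The regulators split in the same libraries. SREBF1 had 143, 165 and 171 normalized counts with control siRNA and 301, 307 and 262 with PKR siRNA 2, and rose by 0.86 (SE 0.10, adjusted p = 3.70e-12). INSIG1 had 187, 161 and 189 against 59.7, 81.5 and 58.3 and fell by 1.43 (SE 0.11, adjusted p = 7.94e-20). SREBF2 fell by 0.29 (SE 0.09, adjusted p = 0.00699). SCAP had a log2 change of −0.08. The groups did not overlap for SREBF1, INSIG1 and SREBF2.

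PKR siRNA 1, with which EIF2AK2 changed by −3.04 on the log2 scale against −3.35 for PKR siRNA 2, had fewer changes in these genes. In the sterol arm 6 of 19 genes fell and 3 rose, with a median of −0.03, where 23.9% of all genes tested were lower and 21.1% higher. Of the 19, 4 were called lower and 1 higher, against 12.6% and 8.53% of all genes. HMGCS1 had 103, 68.9 and 68.5 normalized counts and fell by 0.71 (SE 0.13, adjusted p = 8.06e-06). HSD17B7, a ketosteroid reductase of the C4-demethylation steps, had 25.7, 29.0 and 24.6 with control siRNA against 14.4, 19.05 and 14.5 and fell by 0.70 (SE 0.26, adjusted p = 0.0214). Its pseudogene HSD17B7P2 had a mean of at most 3.42. SC5D had 154, 113 and 136 and fell by 0.59 (SE 0.10, adjusted p = 1.70e-06). HSD17B7 and SC5D were not called with DESeq2, which left 2 called falls.

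TM7SF2 had 14.4, 9.98 and 6.75 normalized counts with PKR siRNA 1, below every control library, and fell by 1.59 (SE 0.20, adjusted p = 3.38e-10). PMVK, which phosphorylates mevalonate phosphate, had 51.3, 63.4 and 70.2 with control siRNA against 117, 102 and 90.7 and rose by 0.74 (SE 0.14, adjusted p = 5.54e-06). NSDHL rose by 0.38 and DHCR7 by 0.18, while MSMO1 fell by 0.41 and EBP by 0.39.

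In the fatty acid arm 2 of 10 tested genes rose with PKR siRNA 1 and 1 fell, with a median of −0.01. ME1, at 122, 128 and 116 normalized counts, was the 1 called gene, with a rise of 0.74 (SE 0.15, adjusted p = 2.51e-05). ACACA rose by 0.30 and SCD fell by 0.34. Of the regulators, INSIG1 rose by 0.48 (243, 252 and 251 normalized counts) and SREBF2 fell by 0.39 (160, 182 and 169), and SREBF1 and SCAP had changes of −0.11 and 0.25 that missed the threshold. None of the 4 regulators was called.

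PKR siRNA 1 and PKR siRNA 2 were then compared directly with each other. In this comparison 9 of the 33 tested genes were called lower with PKR siRNA 2 and 2 higher, against 15.3% and 16.4% of all genes. TM7SF2 was higher by 3.72 (SE 0.20, adjusted p = 9.52e-28) and SREBF1 by 0.97 (SE 0.10, adjusted p = 2.41e-14). INSIG1 was lower with PKR siRNA 2 by a log2 difference of −1.90 (SE 0.11, adjusted p = 7.55e-27), ME1 of −2.30 (SE 0.15, adjusted p = 2.87e-23) and DHCR7 of −1.39 (SE 0.07, adjusted p = 5.16e-29). The other called genes were FDPS (−1.13), NSDHL (−1.01), EBP (−0.95), LPIN1 (−0.95), STARD4 (−0.68) and SQLE (−0.62). HMGCS1 (−0.14) and SC5D (−0.01), which fell with both siRNAs, did not pass the test, and the intervals of these differences were −0.41 to 0.13 and −0.21 to 0.20.

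**Figure D2:**
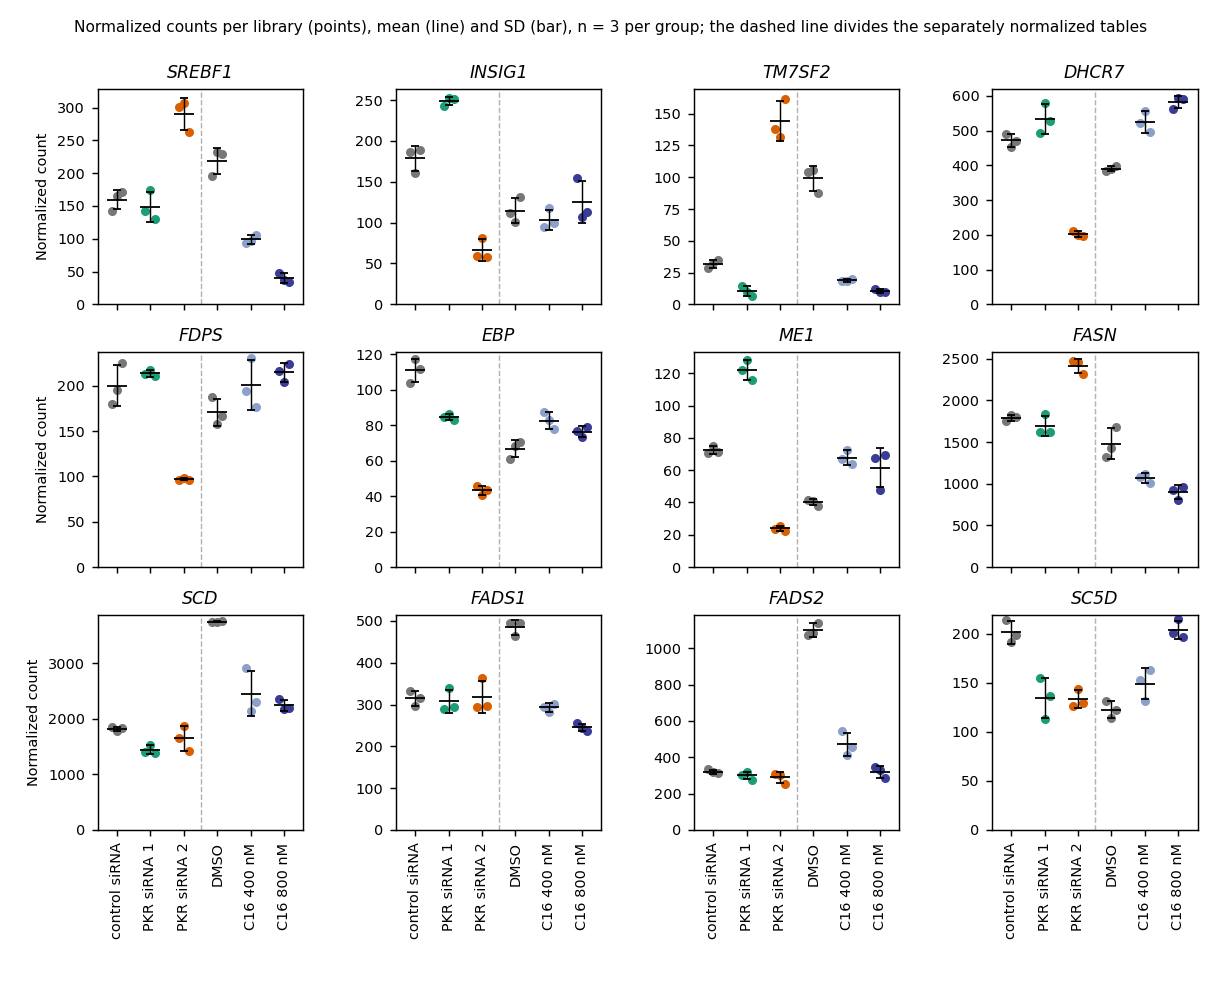
Normalized counts of 12 genes in each library (points, vertical axis from 0), with the mean (line) and SD (bar) of the 3 libraries of each group. Among the siRNA groups SREBF1 is highest with PKR siRNA 2, and DHCR7, FDPS, EBP and INSIG1 are lowest with it. Among the C16 groups, which were normalized separately, SREBF1 falls to 48.4, 37.8 and 34.4 with 800 nM C16 and FADS2 falls with dose.

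With C16 the division between the arms ran differently. At 800 nM, 9 of 19 sterol genes rose and 3 fell, with a median log2 change of 0.32, and 7 of 10 fatty acid genes fell and 1 rose, with a median of −0.37. Over all genes tested the median was 0.00, and 22.3% were higher and 22.6% lower. Over 1.5-fold, 3 sterol genes were called higher and 1 lower, and 4 fatty acid genes lower and 0 higher, against 11.6% higher and 14.1% lower of all genes. The counts of called sterol genes were thus near the background, and those of rising sterol genes and falling fatty acid genes were above it.

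The desaturases and FASN carried the fall. FADS2 had 1074, 1086 and 1142 normalized counts with DMSO, 542, 414 and 455 with 400 nM and 349, 328 and 285 with 800 nM C16. It fell by 1.23 at 400 nM (SE 0.08, adjusted p = 4.85e-20) and by 1.78 at 800 nM (SE 0.08, adjusted p = 1.15e-27), and the 3 groups did not overlap. FADS1 had 495, 465 and 495, then 295, 283 and 302, then 255, 244 and 237, with falls of 0.72 (SE 0.08, adjusted p = 5.84e-11) and 0.98 (SE 0.08, adjusted p = 5.33e-16). FADS1 and FADS2 lie head to head on chromosome 11 and share 3.21% and 3.69% of their exon bases on opposite strands.

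SCD had 3735, 3746 and 3758 normalized counts with DMSO, 2909, 2146 and 2301 with 400 nM and 2361, 2183 and 2196 with 800 nM C16. It fell by 0.62 (SE 0.06, adjusted p = 1.33e-12) and 0.74 (SE 0.06, adjusted p = 1.28e-15), and the doses overlapped. FASN had 1321, 1433 and 1681, then 1083, 1119 and 1009, then 925, 810 and 965, with falls of 0.46 (SE 0.07, adjusted p = 2.10e-07) and 0.71 (SE 0.07, adjusted p = 2.16e-13). All treated libraries lay below all DMSO libraries in these 4 genes. ACACA fell by 0.27 at 400 nM and by 0.38 at 800 nM. ELOVL5 and LPIN1 fell at 800 nM by 0.20 and 0.35, and ACLY and ACSS2 had changes of 0.12 and 0.11 there that missed the threshold.

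ME1 went against its arm. It had 41.8, 41.0 and 38.1 normalized counts with DMSO, 67.0, 72.6 and 63.8 with 400 nM and 67.6, 47.5 and 69.7 with 800 nM C16. Every treated library lay above every DMSO library. It rose by 0.74 at 400 nM (SE 0.16, adjusted p = 0.000333) and by 0.58 at 800 nM (SE 0.16, adjusted p = 0.00249), the latter just under 1.5-fold.

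Sterol genes that rose did so by modest amounts. SC5D had 131, 114 and 122 normalized counts with DMSO, 153, 131 and 163 with 400 nM and 201, 214 and 197 with 800 nM C16, and rose by 0.73 at 800 nM (SE 0.10, adjusted p = 3.60e-08). NSDHL had 96.2, 99.996 and 110 against 154, 150 and 180 at 800 nM, a rise of 0.66 (SE 0.11, adjusted p = 1.50e-06). MSMO1 had 79.7, 80.0 and 80.7 against 132, 108 and 124, a rise of 0.59 (SE 0.13, adjusted p = 0.000166). The 800 nM libraries lay above all DMSO libraries in these 3 genes. Without 800 nM C16 replicate 3, MSMO1 (0.57) and NSDHL (0.57) fell short of 1.5-fold, which left 1 called rise.

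DHCR7 had 384, 390 and 398 normalized counts with DMSO, 521, 558 and 496 with 400 nM and 563, 595 and 591 with 800 nM C16. Its rises, 0.42 (SE 0.07, adjusted p = 4.16e-06) and 0.57 (SE 0.07, adjusted p = 1.09e-09), were under 1.5-fold. SQLE (0.47), HMGCS1 (0.37), ACAT2 (0.34), FDPS (0.33) and CYP51A1 (0.32), the lanosterol demethylase, also rose at 800 nM. TCP1 lies opposite 31.6% of the exon bases of ACAT2, which makes the acetoacetyl-CoA for the pathway, so the values of ACAT2 are uncertain if counting ignored strand. PMVK fell by 0.47 and LSS, the lanosterol synthase, by 0.40. The PMVK libraries overlapped, at 48.6, 68.6 and 44.2 with DMSO and 28.2, 47.5 and 40.1 with 800 nM C16.

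TM7SF2 again had the opposite sign to most of its arm. It had 104, 106 and 87.6 normalized counts with DMSO, 18.1, 18.5 and 20.2 with 400 nM and 12.1, 9.75 and 9.54 with 800 nM C16, and the 3 groups did not overlap. It fell by 2.33 at 400 nM (SE 0.22, adjusted p = 3.58e-13) and fell by 3.13 at 800 nM (SE 0.22, adjusted p = 1.53e-18), the largest changes of any of the 33 tested genes at either dose.

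SREBF1 was the regulator that changed most with C16. It lies at chr17:17811349-17837011 and had 196, 232 and 228 normalized counts with DMSO, 93.6, 96.9 and 106 with 400 nM and 48.4, 37.8 and 34.4 with 800 nM C16. It fell by 1.14 at 400 nM (SE 0.13, adjusted p = 1.72e-10) and fell by 2.43 at 800 nM (SE 0.13, adjusted p = 6.50e-24), with no overlap between groups. SREBF2 had 167, 166 and 187 against 110, 126 and 115 at 800 nM and fell by 0.56 (SE 0.11, adjusted p = 1.40e-05). At 400 nM its change was −0.18 (adjusted p = 0.210). INSIG1, at 112, 101 and 132 with DMSO and 154, 107 and 113 with 800 nM C16, overlapped between groups, with a change of 0.11 (95% confidence interval −0.14 to 0.36, adjusted p = 0.505). SCAP had a change of −0.03.

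At 400 nM, 3 sterol genes rose and 2 fell, and 5 of 10 fatty acid genes fell and 1 rose, where 14.6% of all genes were higher and 11.9% lower. Called were TM7SF2, SCD, FADS1, FADS2 and SREBF1 as lower and ME1 as higher, 5 and 1 of 33 genes against 5.45% and 7.08% of all genes. Between the doses, TM7SF2 was lower at 800 nM by a log2 difference of −0.80 (SE 0.22, adjusted p = 0.00799) and SREBF1 of −1.29 (SE 0.13, adjusted p = 1.87e-11), and these were the 2 called genes, against 3.95% of all genes called lower and 1.13% higher. TM7SF2 was not called between the doses with edgeR (−0.84) or DESeq2 (−0.84). By the adjusted p alone, FADS2 (−0.55), LPIN1 (−0.41), SREBF2 (−0.38), FADS1 (−0.26) and FASN (−0.25) were lower at the higher dose, and IDI1 (0.48), MSMO1 (0.46), SC5D (0.45) and SQLE (0.30) were higher. The dose difference of SCD, −0.11 (95% confidence interval −0.24 to 0.01), did not pass.

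**Figure D3:**
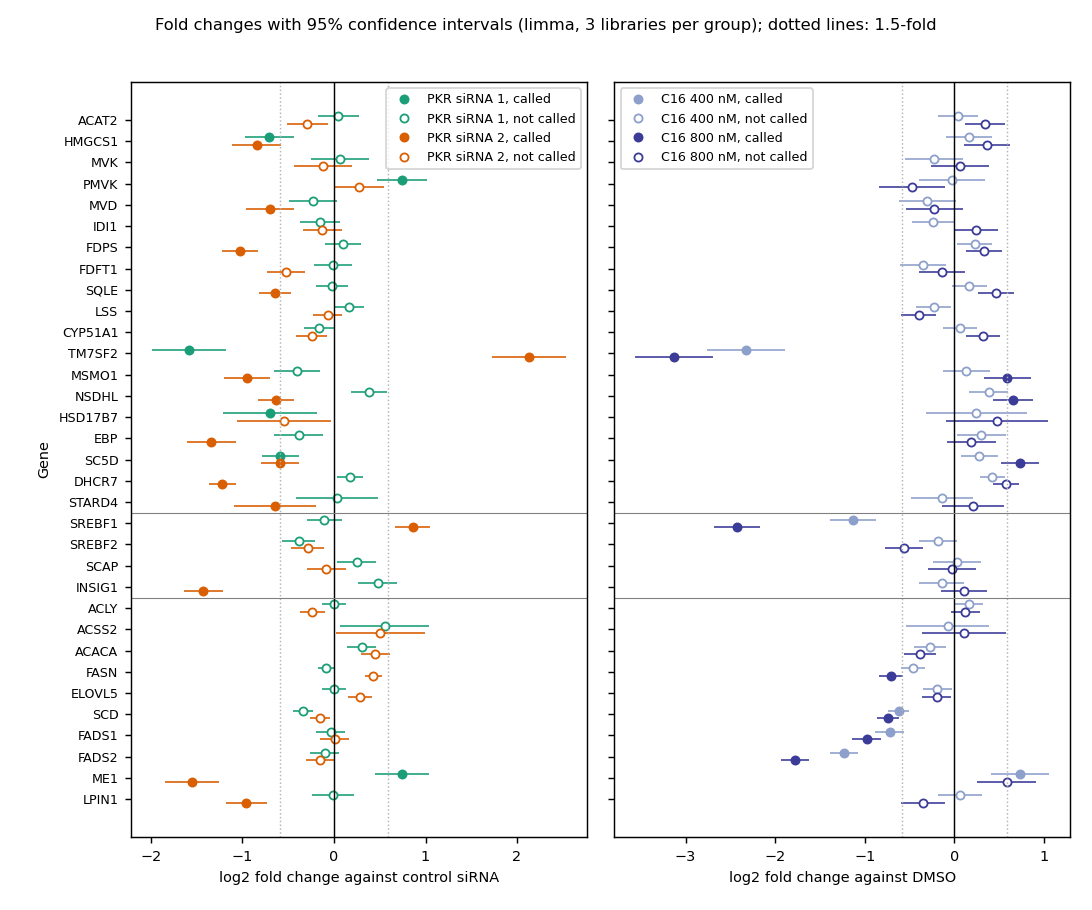
Log2 fold changes of the 33 tested genes with 95% confidence intervals (horizontal axis), against control siRNA on the left and DMSO on the right, with filled points for called genes and dotted lines at 1.5-fold. PKR siRNA 2 has 10 called falls among the sterol genes above the first line, and 800 nM C16 has 4 among the fatty acid genes below the second line.

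The mean log2 difference from the control group was also taken over each arm in each library. This is a description over genes chosen with earlier results known, and it has no test. With PKR siRNA 2 the sterol arm lay at −0.41, −0.44 and −0.43 in the 3 libraries and the fatty acid arm at −0.14, −0.04 and −0.23. With PKR siRNA 1 the sterol arm lay at −0.13, −0.14 and −0.25 and the fatty acid arm at 0.09, 0.17 and 0.06. The sterol arm was thus the lower one in each of the 6 knockdown libraries, by 0.20 to 0.40 with PKR siRNA 2 and by 0.21 to 0.31 with PKR siRNA 1.

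With 800 nM C16 the sterol arm lay at 0.09, −0.03 and 0.13 and the fatty acid arm at −0.39, −0.48 and −0.42, so the fatty acid arm was the lower one. The sterol arm exceeded it by 0.45 to 0.55 at 800 nM and by 0.10 to 0.25 at 400 nM. TM7SF2 weighs on these means. Without it, the sterol arm lay between −0.58 and −0.55 after PKR siRNA 2, from −0.14 to −0.06 after PKR siRNA 1, at 0.05 in each library with 400 nM C16 and between 0.15 and 0.32 with 800 nM C16. Control libraries differed from their own mean by at most 0.03 in either arm. ME1 weighs on the fatty acid arm in the same way. Without both genes, a choice made after seeing the data, the sterol arm lay lower by 0.51 to 0.69 after PKR siRNA 2 and by only 0.085 to 0.15 after PKR siRNA 1, and it exceeded the fatty acid arm by 0.33 to 0.48 at 400 nM and by 0.71 to 0.88 at 800 nM C16. With PKR siRNA 1 the medians of the arms, −0.03 and −0.01, were also close.

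**Figure D4:**
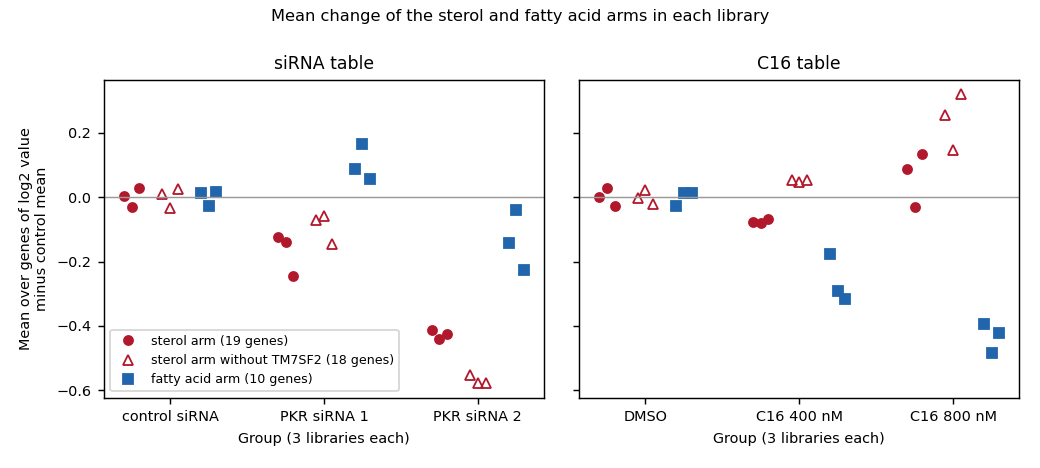
Mean over the genes of an arm of the log2 value minus the control mean (vertical axis), for each of the 3 libraries of a group, with circles for the sterol arm, open triangles for the sterol arm without TM7SF2 and squares for the fatty acid arm. Circles lie below squares in all libraries of PKR siRNA 1 and PKR siRNA 2 and above them in all libraries of C16.

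Other genes of these pathways, from a list of 25 that are not among the 34, were described in the same way. Of the 22 tested in each table, 3 were called higher and 1 lower with PKR siRNA 1 (13.6% and 4.55%, against 8.53% and 12.6% of all genes). PKR siRNA 2 gave 4 called higher and 0 lower (18.2% against 10.8%, and 0 against 12.8%). With 800 nM C16 the numbers were 3 and 3 (13.6% each, against 11.6% and 14.1%) and with 400 nM C16 0 and 0 (against 7.08% and 5.45%). At an adjusted p under 0.05 (limma) with no limit on the fold, PKR siRNA 1 had 4 higher and 4 lower of 22 genes. The shares of all genes were 21.1% and 23.9%. PKR siRNA 2 had 7 higher and 3 lower, against 22.1% and 25.2%. For C16, 800 nM had 5 and 8 (against 22.3% and 22.6%) and 400 nM 2 and 5 (against 14.6% and 11.9%). In lists of this size a few genes separate these shares from the background, and nothing particular to the list is read from them. TMEM97, a sterol-binding protein of the endoplasmic reticulum, had the largest rise with PKR siRNA 1 (1.15) and ACACB, the mitochondrial acetyl-CoA carboxylase, the largest fall with PKR siRNA 1 (−2.08) and with 800 nM C16 (−1.11). DGAT1, which completes triglycerides, had the largest rise with PKR siRNA 2 (0.80), and ACSL1, which joins long-chain fatty acids to coenzyme A, the largest with 800 nM C16 (0.76).

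Among 9 genes of sterol uptake and transport, 8 were tested with the siRNAs and 9 with C16. With PKR siRNA 2, SCARB1, the receptor for high-density lipoprotein, rose by 1.43 and LIPA, the lysosomal acid lipase, fell by 0.68, and these were the called genes. With PKR siRNA 1 the 1 called gene was OSBPL5, an oxysterol-binding protein relative, with a fall of 0.68. Counts of 0 or 1 of 8 genes in a direction are near the background shares of 8.53% to 12.8%. At 800 nM C16, 4 of 9 were called higher and 2 lower, against 11.6% and 14.1% of all genes. Besides VLDLR, the genes called higher, named after their values were seen, were SOAT1, which esterifies cholesterol (0.90), LIPA (0.67) and NPC2, which carries cholesterol out of lysosomes (0.66). VLDLR, a lipoprotein receptor, went from a mean of 6.01 normalized counts with DMSO to 13.9 and 17.4 with the rising doses (changes of 1.11 and 1.38). It reached the mean of 10 needed for a test only through the C16 libraries, where it was high, so its calls are conditioned on the filter. Without it 3 genes were called higher at 800 nM and 0 at 400 nM. OSBPL5 had the largest fall at 800 nM (−1.40), and at 400 nM, where it changed by −0.84, it was the 1 gene called lower, against 5.45% of all genes. VLDLR included, the adjusted p alone gave 5 of 9 higher and 4 lower at 800 nM, against 22.3% and 22.6% of all genes. At 400 nM it gave 5 higher and 2 lower, against 14.6% and 11.9%. PKR siRNA 1 had 2 of 8 higher and 1 lower (against 21.1% and 23.9%), and PKR siRNA 2 had 1 and 2 (against 22.1% and 25.2%).

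Of 18 genes of fatty acid oxidation, 17 were tested with the siRNAs and 16 with C16. With PKR siRNA 2, 4 were called higher and 0 lower (23.5% and 0, against 10.8% and 12.8% of all genes), led by ACADM, the medium-chain acyl-CoA dehydrogenase, at 0.96. With PKR siRNA 1, 2 were called higher, led by ACADVL, the very-long-chain enzyme, at 1.21, and 1 lower, ACADS, the short-chain enzyme, at −0.69 (11.8% and 5.88%, against 8.53% and 12.6%). With 800 nM C16, 0 were called higher and 2 lower, led by ETFB, an electron carrier subunit, at −0.91 (12.5%, near the 14.1% of all genes), and with 400 nM C16 0 and 0 were called. By the adjusted p alone, 7 of 17 were higher and 3 lower with PKR siRNA 1, against 21.1% and 23.9% of all genes. PKR siRNA 2 had 6 higher and 2 lower, against 22.1% and 25.2%. For C16, 800 nM had 1 higher and 4 lower of 16 (against 22.3% and 22.6%) and 400 nM 0 and 0 (against 14.6% and 11.9%). The last list held 8 genes of the liver X receptors and their targets. These receptors are known to raise SREBF1 when oxysterols are abundant. Of the 6 tested with the siRNAs, 0 were called higher and 1 lower with PKR siRNA 1, and with PKR siRNA 2 NR1H3, a liver X receptor, rose by 0.84 and ABCA1, a cholesterol exporter, fell by 0.77. Of the 4 tested with C16, NR1H2, the other receptor, fell by 0.64 at 800 nM, while 0 were called at 400 nM. A count of 1 among 4 or 6 genes cannot be set apart from background shares of 5.45% to 14.1%. By the adjusted p alone, 4 of 6 were higher and 1 lower with PKR siRNA 2, against 22.1% and 25.2% of all genes. PKR siRNA 1 had 1 higher and 1 lower of 6, against 21.1% and 23.9%. For C16, 800 nM had 0 higher and 2 lower of 4 (against 22.3% and 22.6%) and 400 nM 0 and 1 (against 14.6% and 11.9%). With so few genes nothing particular to the list is read from these counts.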

How the data were processed

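RNA of PANC-1 cells was measured in 18 libraries, 3 in each of 6 groups, named from the sample labels. The 400 nM dose comes from the labels alone. The authors used TopHat to map reads to hg38, featureCounts to count them and the TMM method of TCC to normalize. The annotation, and whether counting used strand, are not given in the sources used here, so overlapping genes are named as uncertain. Each deposited value is a normalized signal: a gene's read count over a library factor, called a normalized count here. Reads were recovered, since 100.0% of values were whole reads times that factor (within 0.01 read). For replicate 1 of PKR siRNA 2 and replicate 1 of 800 nM C16 1 read is worth too nearly 1 to tell multiples from rounding. The number of columns not assigned to a sample was 0. The precision of a value is limited by the total reads of its library, given in the report.

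From these values, log2 (normalized count + 1) was fitted with limma 3.58.1 in R 4.3.3 (trend, two-sided, all 9 libraries of a table, mean of at least 10), with Benjamini-Hochberg adjustment over all genes tested. Arms were averaged per library. Gene lists are written from memory, and the members and lists were chosen with earlier results of these data known. Named are EIF2AK2, all members, and of the other lists the called genes with the largest rise and fall in comparisons with controls. A called gene of the liver X receptor list and a called gene of the other sterol and fatty acid genes are not reported here, and the latter is left out of that list's counts. The alternatives changed the pseudocount (0.5, 5), the filter (none, or a mean of 30), the scaling (median of ratios), the samples fitted (the 6 libraries compared, or all but 1) or the design (replicate block), or tested recovered reads with edgeR 4.0.16 (quasi-likelihood) or DESeq2 1.42.0. Scripts were tested on simulated reads. Promoter windows are from RefSeq (GRCh38.p14).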

Additional observations from a re-analysis of the deposited data

Results flagged for a closer look

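TM7SF2 and ME1 went in opposite directions with the PKR siRNAs, and the difference between the siRNAs was itself tested. TM7SF2 was called lower with PKR siRNA 1 and higher with PKR siRNA 2, with a log2 difference of 3.72 (adjusted p = 9.52e-28, limma). ME1 was called higher with PKR siRNA 1 and lower with PKR siRNA 2, with a difference of −2.30 (adjusted p = 2.87e-23).

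SREBF1, TM7SF2, MSMO1, NSDHL and SC5D were called in opposite directions with PKR siRNA 2 and 800 nM C16. These differences were not tested, because the tables were normalized separately and come from different runs. TM7SF2 had log2 changes of 2.13 with PKR siRNA 2 and −3.13 with 800 nM C16. SREBF1 had 0.86 and −2.43. MSMO1 had −0.95 and 0.59, NSDHL −0.63 and 0.66, and SC5D −0.59 and 0.73.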

How the results depend on the processing

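The called changes counted here are those of the members and those of EIF2AK2 with each siRNA, which stayed called under all 18 alternatives. Of 915 values of the 51 called log2 fold changes under the alternatives, 884 stayed called with the same sign, 31 missed a threshold and 0 reversed. Of the 51, 41 were called under every alternative that gave a value (STARD4, in both comparisons where it was called, and HSD17B7 had no value with a minimum mean of 30). Those that missed one were HSD17B7 and SC5D for PKR siRNA 1, SC5D, STARD4 and NSDHL for PKR siRNA 2, SQLE between the siRNAs, MSMO1 and NSDHL with 800 nM C16, SCD with 400 nM C16 and TM7SF2 between the doses. Genes called lower with PKR siRNA 1 numbered 2 with DESeq2, against 4. Between the doses 1 gene was called lower with the fit of 6 libraries, edgeR or DESeq2, against 2. The median of the fatty acid arm with PKR siRNA 2 was −0.15 with no filter and with a minimum mean of 30, against −0.07. The causes were not tested. Leaving out each library in turn, genes called higher with 800 nM C16 ranged from 1 to 4 (1 without its replicate 3, 3 in the full fit) and genes called higher between the doses from 0 to 1 (1 without 400 nM replicate 3 or 800 nM replicate 2). The median log2 change of the sterol arm ranged from −0.16 to −0.019 with PKR siRNA 1, from −0.51 to −0.35 between the siRNAs, from 0.22 to 0.37 with 800 nM C16, from 0.010 to 0.13 with 400 nM C16 and from 0.14 to 0.32 between the doses. That of the fatty acid arm ranged from −0.14 to 0.0039 with PKR siRNA 2, from −0.073 to 0.083 between the siRNAs and from −0.19 to −0.11 between the doses. Single libraries ended these calls: for PKR siRNA 1, SC5D without control replicate 1 (−0.54) or its own replicate 2 (−0.47), and HSD17B7 without control replicate 2 (−0.63) or its own replicate 1 or 3 (−0.64 each). For PKR siRNA 2 they were SC5D, NSDHL and STARD4 without control replicate 1 (−0.55, −0.58 and −0.47), SC5D without its own replicate 1 or 3 (−0.55, −0.57) and NSDHL without its own replicate 2 (−0.55). Between the siRNAs it was SQLE without PKR siRNA 1 replicate 3 (−0.58). At 800 nM C16 they were MSMO1 without replicate 1 or 3 (0.53, 0.57) and NSDHL without replicate 3 (0.57), and at 400 nM SCD without replicate 2 or 3 (−0.53, −0.58). The replicate block gave the same counts, with 4 genes called lower by PKR siRNA 1, 13 by the other siRNA and 6 by 800 nM C16. Same-numbered libraries had correlations of deviations from −0.05 to 0.03 over 18 pairs, and 12 of 36 library comparisons were highest with their own number. Much of the spread within groups was read sampling, which would keep such correlations low. A pairing of libraries by number was therefore not seen, but was not excluded. Median-of-ratios rescaling moved the median of all genes by at most 0.02. Depth limits genes such as ELOVL6, HSD17B7 and STARD4, and the smaller C16 libraries.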
